A study of Homo sapiens with 12 samples.

Results

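The 10 genes that mark the serous ovarian carcinoma lineage were followed by name. They were PAX8, WT1, MUC16, MSLN, SOX17, WFDC2, MECOM, FOLR1, EMX2 and LHX9, and each symbol was matched to the deposited count table through its Ensembl identifier. Of these 10 genes, 8 were analysed among the 17508 genes of the table, and MUC16 and MSLN were not analysed here. The table came from poly(A) RNA-seq of 12 libraries labelled TYK-nu, a human high-grade serous ovarian cancer cell line. The cells received 15 µM cisplatin, a platinum drug that cross-links DNA, or DMSO, its vehicle control, and were harvested after 24 or 72 h. This gave 4 groups of 3 libraries, named DMSO 24 h, cisplatin 24 h, DMSO 72 h and cisplatin 72 h. A single line was used, so the replicates carry no spread between tumours. For each gene the table held fragments in exons, mostly mature mRNA, and fragments in introns, mostly unspliced RNA.

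High-grade serous carcinoma is thought to arise largely from secretory cells of the fallopian tube, a derivative of the embryonic Müllerian duct. Its cells commonly keep the transcription factors of that duct, among them PAX8 and SOX17, and carry surface and secreted proteins that serve as serum markers or drug targets, such as MUC16 (CA125), WFDC2 (HE4), MSLN (mesothelin) and FOLR1 (folate receptor alpha). WT1, a zinc-finger factor of the urogenital ridge and mesothelium, is a diagnostic stain for serous histology, and MECOM, which encodes the EVI1 zinc-finger protein, lies in a region often amplified in these tumours. Several of these factors also act outside the ovary, MECOM and SOX17 for instance in blood stem cells and vessels.

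Exon counts ranged from 17341818 to 63913081 in total per library and intron counts from 1185012 to 4840181. A floor of 3 counts corresponded to between 0.0469 and 0.173 CPM (counts per 1000000 exon counts) in a single library and to 0.00787 over all 12 libraries together. Levels below are exon CPM scaled between libraries by TMM, and a gene was called expressed when its mean reached 1 CPM in at least 1 group, near 0 when it stayed under 0.1 CPM in every library, and low otherwise.

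The labelled cell type was first checked against markers, and endothelial markers summed to more than the epithelial ones a carcinoma label calls for. Of 6 epithelial markers 4 were expressed, with KRT18 at a mean of 156.7 CPM and KRT8 at 22.4 CPM, but CDH1 (E-cadherin) had 0 counts in every library and KRT7 was low at 0.0599 CPM. Of 4 endothelial markers all 4 were expressed, and 3 of them strongly: PECAM1 averaged 1933 CPM, CDH5 (VE-cadherin) 859 CPM and KDR (VEGF receptor) 266 CPM, whereas VWF averaged 0.646 CPM and had a group mean above 1 CPM only in cisplatin 24 h (1.02 CPM). Summed, the 4 endothelial markers ranged from 3608 to 3750 CPM at 24 h and from 2299 to 2590 CPM at 72 h, against 168.1 to 198.2 CPM for the 6 epithelial markers over all libraries. Mesothelial markers (0 of 6 expressed, summed level 0.0 to 0.209 CPM) and those of fibroblasts and ovarian stroma (0 of 5 measured expressed, 0.0335 to 0.269 CPM) were near 0 except LRRN4 and COL1A1, which were low. Among 4 leukocyte markers only CD68, also a lysosomal gene of many cells, was expressed, and PTPRC (CD45) had 0 counts. Of 18 further endothelial genes, read after these values, 13 were expressed, while CD34, PLVAP, FLT4, SOX18 and EMCN were low or near 0. The pattern was shared by all 12 libraries, so no result could be given without such libraries. No reference profile of TYK-nu was compared, and the identity of the libraries was not tested further. In what follows "the libraries" means those labelled TYK-nu.

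**Figure D1:**
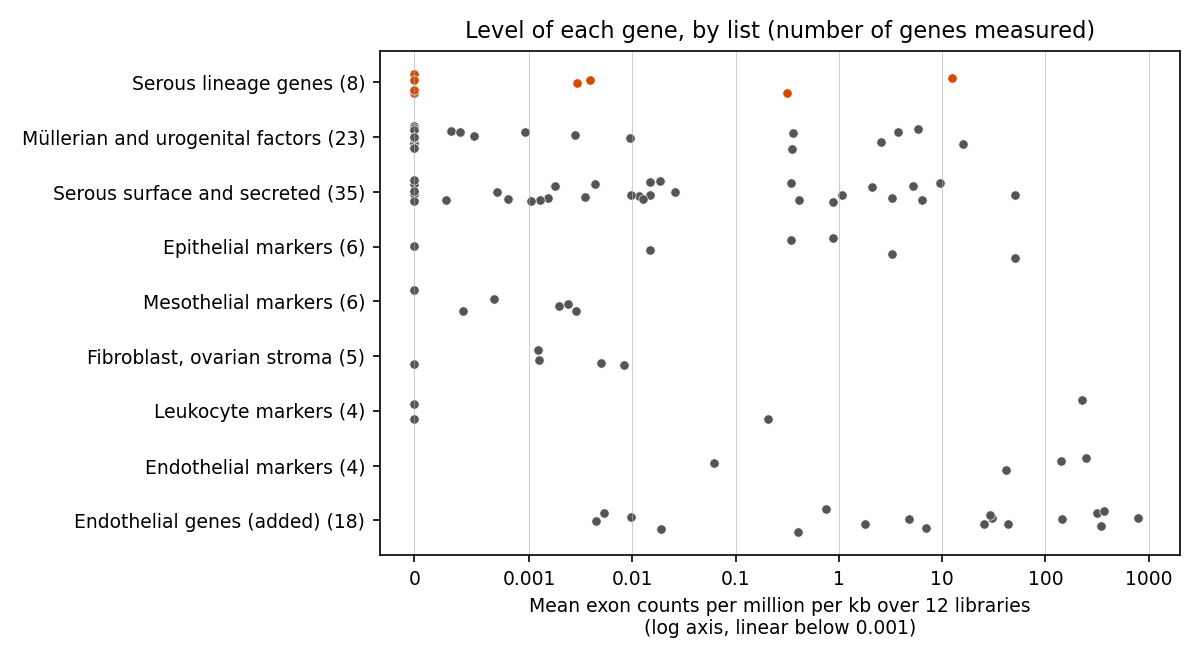
Each point is the mean exon level of a gene over the 12 libraries, in CPM per kb of exon (log axis, linear below 0.001), grouped by gene list with the number of genes measured in parentheses. The 8 serous lineage genes (orange) lay between 0 and 12.6, and the endothelial markers PECAM1 and CDH5 at 250 and 143, the last row being a list added after the values were seen.

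Of the 8 lineage genes analysed, 2 were expressed (MECOM and WT1), 1 was low (LHX9) and 5 were near 0 (PAX8, SOX17, WFDC2, FOLR1 and EMX2). SOX17, WFDC2, FOLR1 and EMX2 had no exon and no intron count in any of the 12 libraries. The 2 expressed genes were also the only lineage genes with enough counts to be tested, among 10444 genes tested for exon counts and 9618 for intron counts. The plot of exon level by gene and library shows the separation between them.

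**Figure D2:**
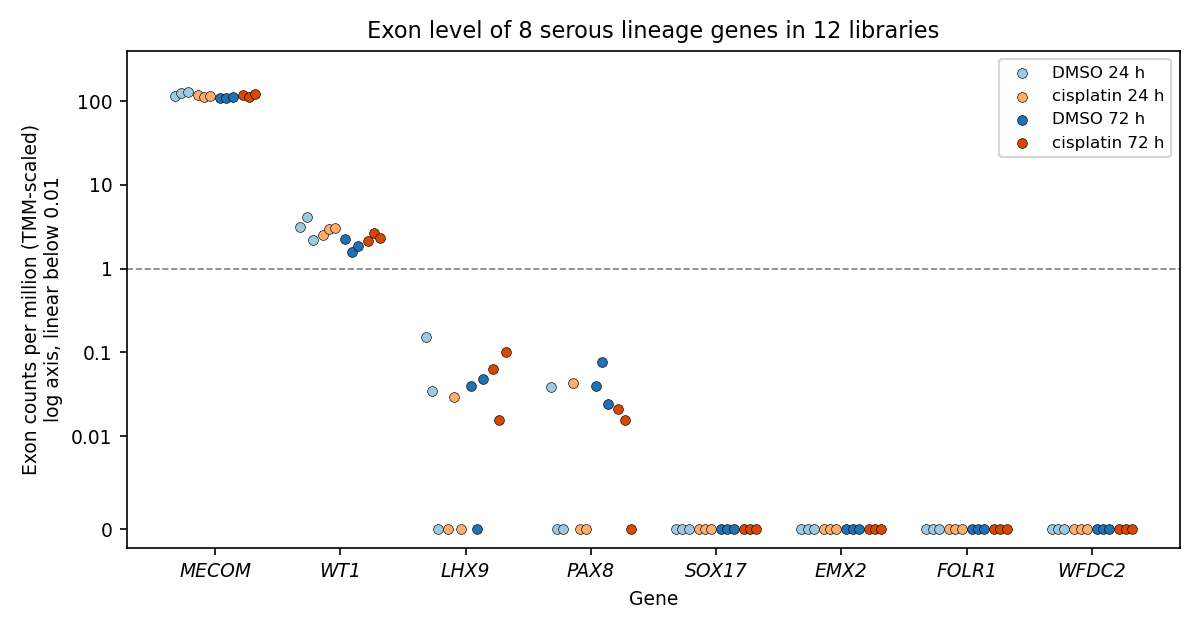
Exon CPM (TMM-scaled, log axis, linear below 0.01) of the 8 lineage genes, a point per library coloured by group, with a dashed line at 1. MECOM lay between 109 and 128 and WT1 between 1.59 and 4.19 in every library, LHX9 and PAX8 were at 0.153 or below, and the 4 genes on the right were at 0 throughout.

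The promoters of 4 lineage genes are shown because they set the expressed pair, MECOM and WT1, beside a transcription factor (PAX8) and a secreted marker (WFDC2) that were near 0. The sequences are from RefSeq on GRCh38.p14, lie within the 250 bases before the outermost start of each gene and outside its annotated exons, and are written 5′ to 3′ on the strand of the gene with each CG, the target of promoter methylation, in capitals. RefSeq windows were matched for 7 of the 10 genes.
MECOM (chr3:169663776-169663962, minus strand): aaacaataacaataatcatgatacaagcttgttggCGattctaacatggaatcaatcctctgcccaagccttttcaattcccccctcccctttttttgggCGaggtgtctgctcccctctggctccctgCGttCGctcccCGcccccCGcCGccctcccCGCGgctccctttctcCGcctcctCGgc
WT1 (chr11:32435565-32435789, minus strand): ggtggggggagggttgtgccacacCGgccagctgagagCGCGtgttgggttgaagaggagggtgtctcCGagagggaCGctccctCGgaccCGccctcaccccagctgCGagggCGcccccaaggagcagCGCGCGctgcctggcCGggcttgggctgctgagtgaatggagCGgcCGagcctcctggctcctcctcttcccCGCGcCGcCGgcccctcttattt
PAX8 (chr2:113278922-113279171, minus strand): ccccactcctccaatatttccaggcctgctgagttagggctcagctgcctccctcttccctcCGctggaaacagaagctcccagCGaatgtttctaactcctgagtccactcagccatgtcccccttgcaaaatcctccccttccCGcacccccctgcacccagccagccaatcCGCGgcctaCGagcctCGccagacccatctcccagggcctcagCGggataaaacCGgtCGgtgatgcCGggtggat
WFDC2 (chr20:45469503-45469752, plus strand): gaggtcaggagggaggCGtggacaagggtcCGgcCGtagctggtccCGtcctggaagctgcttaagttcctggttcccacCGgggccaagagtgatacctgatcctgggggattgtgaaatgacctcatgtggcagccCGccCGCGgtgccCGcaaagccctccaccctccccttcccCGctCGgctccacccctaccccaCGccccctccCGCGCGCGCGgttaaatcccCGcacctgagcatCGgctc

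At the outermost starts, counts of CG in the 250-base windows did not separate MECOM and WT1 from the other genes with a window. SOX17 and FOLR1, both at 0, had no window to compare. Several starts were listed for MECOM (3), WT1 (4), LHX9 (2) and MUC16 (2), and which start these libraries used was not tested. The windows of WT1 (expressed) and WFDC2 (near 0) each held 19 CG, more than 65.4% of all 35116 windows outside chromosome 8 held. MECOM, the highest member, held 14 CG, of which 11 lie in the 187 bases printed, and PAX8 held 11, the median of all windows being 11. EMX2 (near 0) and LHX9 (low) held 20 CG each, and MUC16, whose expression was not analysed here, held 6. Matches to GGGCGG or its reverse complement CCGCCC were found in the windows of MECOM (2), EMX2 (2), WT1 (1), WFDC2 (1) and MUC16 (1). None was found in those of PAX8 and LHX9, and 42.6% of all windows held such a match. These are letters of the reference, and methylation was not measured in the libraries.

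PAX8 (ENSG00000125618, chr2:113215997-113278921 on the minus strand, GRCh38) is the paired-box factor used to recognise Müllerian epithelium. Its exon counts were 1, 0 and 0 in DMSO 24 h, 1, 0 and 0 in cisplatin 24 h, 1, 2 and 1 in DMSO 72 h and 1, 1 and 0 in cisplatin 72 h. No library held more than 2 exon counts, and the 8 counts in all amounted to 0.021 CPM before TMM scaling (exact 95% Poisson interval 0.00907 to 0.0414, counting error only). Introns added 3 counts in 3 libraries. The antisense gene PAX8-AS1, which overlaps it over 60585 bases, held 2 exon counts in all, and the strand setting of the counting was not given in the sources used here.

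SOX17 (ENSG00000164736), an HMG-box factor that works with PAX8 in Müllerian cells and also in arterial endothelium, had 0 of 380996418 exon counts over the 12 libraries. The upper end of the exact 95% Poisson interval, for counting error only, was 0.00968 CPM. The same count of 0 and the same bound held for WFDC2 (ENSG00000101443, chr20:45469753-45481532, plus strand), a secreted protease-inhibitor-type protein, and for FOLR1 (ENSG00000110195, chr11:72189558-72196323, plus strand), the folate receptor targeted in ovarian cancer. EMX2 (ENSG00000170370, chr10:117542445-117549546, plus strand), a homeobox factor needed for the urogenital ducts, was likewise at 0 in every library. Expression of these 4 genes was thus not detectable at this depth in any group, and no comparison between groups could be made for them.

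LHX9 (ENSG00000143355, chr1:197911902-197935478, plus strand), a LIM-homeobox factor of the early gonad, was the only member called low. Its exon counts were 4, 1 and 0 in DMSO 24 h, 0, 1 and 0 in cisplatin 24 h, 1, 0 and 2 in DMSO 72 h and 3, 1 and 3 in cisplatin 72 h, a total of 16. Every group held a library with at least 1 exon count, and the groups overlapped. Only DMSO 24 h replicate 1 (0.1535 CPM) and cisplatin 72 h replicate 3 (0.1006 CPM) lay above 0.1 CPM. That cut falls inside the range of the 3-count floor, so the split between LHX9 (low) and PAX8 (near 0) rests on a few fragments. Intron counts were 20, in 10 libraries, so introns held 55.6% of its counts against 7.18% for MECOM and 10.5% for WT1. The exon total corresponded to 0.042 CPM (exact 95% Poisson interval 0.024 to 0.0682), and the gene was too low to be tested.

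MECOM (ENSG00000085276, chr3:169083499-169663775, minus strand) spans 26 exon blocks in GENCODE 44 with 571017 bases outside exons, and was by far the most abundant lineage gene. Over the 12 libraries it averaged 116.6 exon CPM, or 12.6 CPM per kb of merged exon, a level above that of 66.7% of the genes tested. WT1 (ENSG00000184937, chr11:32387775-32435564, minus strand) averaged 2.58 exon CPM, or 0.317 CPM per kb, above only 8.43% of the genes tested. On the per-kb scale the order was therefore MECOM, WT1, LHX9 (0.00387 CPM per kb) and PAX8 (0.00292 CPM per kb), followed by the 4 genes at 0. The Poisson intervals of LHX9 and PAX8 overlapped before scaling by length, so the order of this pair is not resolved. The processed pseudogene RPL22P1 and a long non-coding RNA lie inside MECOM on its strand and MECOM-AS1 opposite to it. Their share in its counts was not tested.

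MECOM exon levels stayed within a narrow band. They were 116.0, 124.5 and 127.6 CPM in DMSO 24 h, 119.1, 112.5 and 115.3 CPM in cisplatin 24 h, 108.5, 110.3 and 111.6 CPM in DMSO 72 h and 119.4, 112.9 and 121.7 CPM in cisplatin 72 h. The group means were 122.7 ± 6.01, 115.6 ± 3.31, 110.1 ± 1.54 and 118.0 ± 4.52 CPM (SD, n = 3 each). All 3 libraries of DMSO 72 h lay below the other groups, and the other groups overlapped one another.

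Intron levels of MECOM varied more. They averaged 158.5 ± 13.1 intron CPM in DMSO 24 h, 132.5 ± 27.4 in cisplatin 24 h, 105.4 ± 20.1 in DMSO 72 h and 114.2 ± 6.0 in cisplatin 72 h (SD, n = 3), from 244 to 309 counts per library in the first group to 240 to 547 in the last. The exon/intron count ratio averaged 10.7 ± 0.936 in DMSO 24 h, 11.8 ± 2.66 in cisplatin 24 h, 15.6 ± 3.28 in DMSO 72 h and 14.2 ± 0.94 in cisplatin 72 h. Both 72 h groups lay above DMSO 24 h in every library, and cisplatin 24 h overlapped with all 3 other groups.

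WT1 rested on far fewer counts, 973 in exons and 114 in introns over all libraries. Its exon levels were 3.19, 4.19 and 2.21 CPM in DMSO 24 h (mean 3.19 ± 0.989), 2.54, 2.99 and 3.04 CPM in cisplatin 24 h (2.85 ± 0.277), 2.26, 1.59 and 1.87 CPM in DMSO 72 h (1.91 ± 0.335) and 2.13, 2.65 and 2.35 CPM in cisplatin 72 h (2.37 ± 0.263; SD, n = 3 each). The highest library was replicate 2 of DMSO 24 h, and replicate 3 of that group, at 2.21 CPM, fell inside the range of DMSO 72 h. Intron counts were 16, 9 and 17 in DMSO 24 h, 9, 13 and 11 in cisplatin 24 h, 7, 10 and 5 in DMSO 72 h and 5, 4 and 8 in cisplatin 72 h, so a ratio in a single library could turn on a few fragments. The mean exon/intron ratio was 6.98 ± 5.68, 6.34 ± 1.56, 9.31 ± 5.79 and 23.8 ± 17.2 in the same order.

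**Figure D3:**
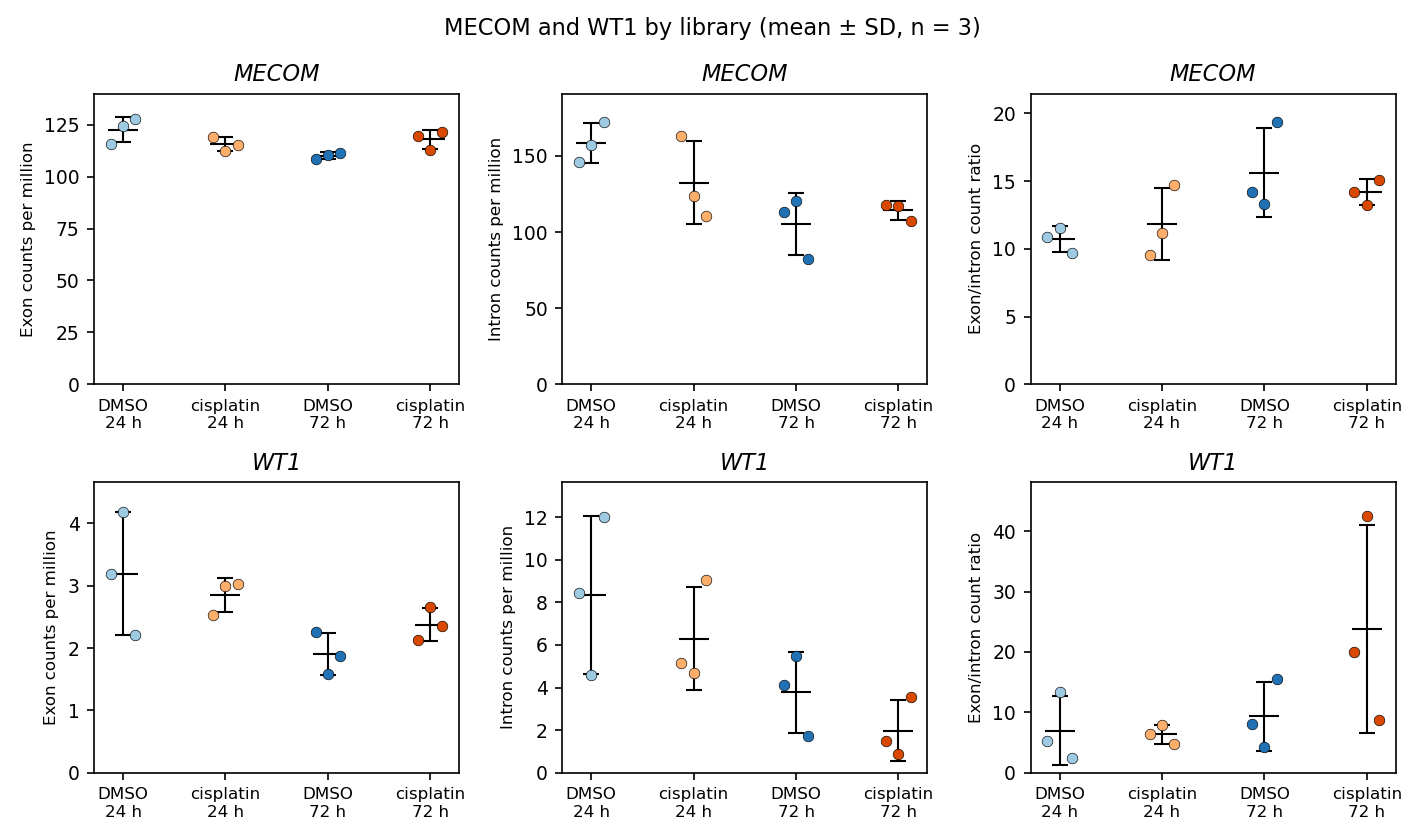
Exon CPM, intron CPM and the exon/intron count ratio of MECOM (top) and WT1 (bottom) in the 4 groups, with a point per library and bars for the mean ± SD (n = 3), all axes starting at 0. MECOM exon levels were between 108.5 and 127.6, and the WT1 ratio of cisplatin 72 h was spread from 8.75 to 42.5.

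The comparison the study was built on is cisplatin against DMSO. Neither lineage gene that could be tested changed in exon counts at 24 h, where 0.0% of the 10444 genes tested passed an adjusted p of 0.05 in edgeR's quasi-likelihood test (260 had an unadjusted p below it, and DESeq2 also called 0). For MECOM the log2 change was -0.09 ± 0.054 (SE) with an adjusted p of 0.9997, and for WT1 it was -0.19 ± 0.21 with an adjusted p of 0.9997. In bulk RNA, fewer cells making a transcript and less transcript per cell cannot be told apart, here and in the results that follow.

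At 72 h the exon changes were 0.10 ± 0.053 for MECOM (edgeR, adjusted p = 0.457) and 0.33 ± 0.21 for WT1 (adjusted p = 0.546), and neither passed where 0.0287% of genes did. That share is 3 genes, against 55 with DESeq2 and 154 with edgeR without a filter, and neither lineage gene was among them. MECOM was higher in all 3 cisplatin libraries than in all 3 DMSO libraries at 72 h, a separation also found upward in 8.85% of the genes tested. For WT1 the libraries of the 2 treatments overlapped. The difference between the drug effects at 72 and 24 h was 0.18 ± 0.076 for MECOM and 0.52 ± 0.30 for WT1, with adjusted p-values of 0.498 and 0.584, in a test that 0.0% of genes passed (985 had an unadjusted p under 0.05, and DESeq2 called 0).

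In intron counts neither gene passed either. For MECOM the change with cisplatin was -0.25 ± 0.13 at 24 h and 0.14 ± 0.13 at 72 h (edgeR, adjusted p = 0.942 and 0.912), and for WT1 -0.45 ± 0.47 and -1.01 ± 0.59 (adjusted p = 0.977 and 0.814). The WT1 intron change at 72 h was opposite in sign to its exon change. An intron change as large was found in 0.333% of genes tested, but WT1 introns held only 4 to 17 counts per library. The shares of the 9618 genes that passed were 0.0208% at 24 h and 0.0416% at 72 h. The exon/intron ratio, tested by the logistic regression that the study used, also did not pass for either gene. MECOM changed by 0.05 ± 0.076 at 24 h and -0.18 ± 0.073 at 72 h (adjusted p = 0.729 and 0.0873), and WT1 by 0.15 ± 0.36 and 1.31 ± 0.48 (adjusted p = 0.854 and 0.0563), where 11.5% and 11.4% of genes passed. This regression carries no term for the spread between replicates. With such a term, in edgeR and in a quasi-binomial model, the adjusted p-values at 72 h were 0.915 and 0.853 for MECOM and 0.803 and 0.796 for WT1, and over all genes 0 and 0 passed at 24 h (595 and 530 by unadjusted p) and 2 and 0 at 72 h (586 and 683 by unadjusted p). In the regression alone, the 72 h ratio of MECOM passed without replicate 1 or 2 of DMSO 72 h (-0.24 and -0.29) and was 0.03 without replicate 3 of that group, and that of WT1 passed without cisplatin 72 h replicate 3 or DMSO 72 h replicate 3 (1.90 and 1.78).

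The plainest changes in the lineage genes were between the harvest times, and time in culture cannot be told apart from anything else that differed between the 24 and 72 h harvests. In DMSO both tested genes fell in exon counts, as 32.5% of the 10444 genes did (65.1% passed in either direction). MECOM decreased by 10.2% (log2 change -0.15 ± 0.054, edgeR adjusted p = 0.0148), with all 3 libraries at 72 h below all 3 at 24 h, as in 33.4% of genes. WT1 decreased by 41.7% (-0.78 ± 0.22, adjusted p = 0.00334), although its groups overlapped. A change as large as that of WT1 was found in 16.0% of genes tested and a change as large as that of MECOM in 74.8%. The exon call of MECOM was lost without DMSO 24 h replicate 2 (-0.14, adjusted p = 0.0531) or replicate 3 (-0.13, adjusted p = 0.0607), and that of WT1 without DMSO 24 h replicate 2 (-0.53, adjusted p = 0.0594).

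In cisplatin neither gene passed in exon counts between 24 and 72 h, in a comparison that 63.5% of genes passed. The change was 0.03 ± 0.054 for MECOM (edgeR, adjusted p = 0.646) and -0.26 ± 0.21 for WT1 (adjusted p = 0.291). The test of the difference between the changes in cisplatin and in DMSO is the same as that between the drug effects given above, and it did not pass for either gene. The log2 changes of both genes are set against the spread of all genes in the plot of the 4 comparisons.

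**Figure D4:**
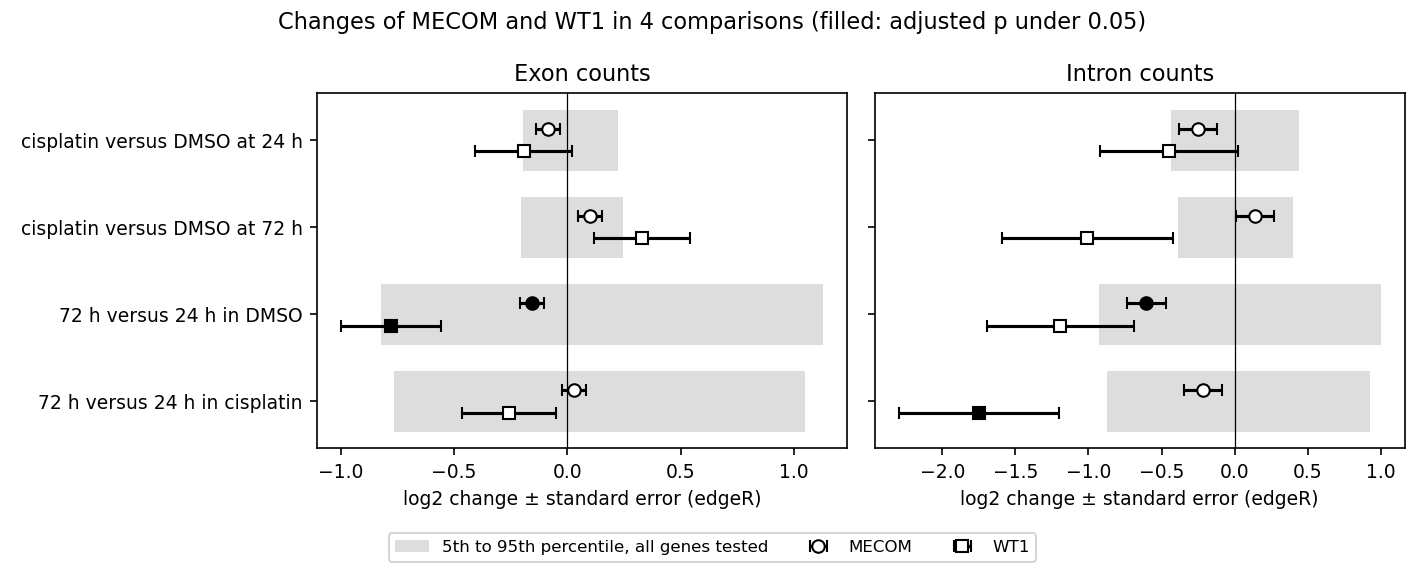
log2 changes of MECOM (circles) and WT1 (squares) in exon counts (left) and intron counts (right) for the 4 comparisons, with bars for the standard error, filled symbols for an adjusted p under 0.05 (edgeR) and grey bars for the 5th to 95th percentile of all genes tested. The filled symbols were the exon counts of both genes and the intron counts of MECOM between 24 and 72 h in DMSO, and the intron counts of WT1 between 24 and 72 h in cisplatin.

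Intron counts of MECOM decreased by 34.2% between 24 and 72 h in DMSO (log2 change -0.60 ± 0.13, edgeR adjusted p = 0.000267), in a comparison where 16.2% of genes fell and 33.4% passed in either direction. All 3 libraries at 72 h were below those at 24 h, as for 21.2% of genes, and the call was kept whichever library was left out. In cisplatin the intron change of MECOM was -0.22 ± 0.13 (adjusted p = 0.204). WT1 showed the other order, with -1.19 ± 0.50 in DMSO (adjusted p = 0.0613) and -1.75 ± 0.55 in cisplatin (adjusted p = 0.0102), where 15.4% of genes fell and 31.8% passed. The WT1 intron levels of the cisplatin groups did not overlap, as for 20.7% of genes in that direction. The WT1 call in cisplatin was lost without cisplatin 24 h replicate 3 (-1.47, adjusted p = 0.0632) or cisplatin 72 h replicate 2 (-1.30, adjusted p = 0.106), and a change in DMSO passed without DMSO 24 h replicate 2 (-1.504) or DMSO 72 h replicate 2 (-1.59). The difference between the drug effects on intron counts was 0.39 ± 0.19 for MECOM and -0.56 ± 0.74 for WT1 (adjusted p = 0.856 and 0.960), where 0.0416% of genes passed.

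The exon/intron ratio of MECOM rose between 24 and 72 h in both treatments by logistic regression, by 0.55 ± 0.078 in DMSO (adjusted p = 5.239e-11) and 0.32 ± 0.070 in cisplatin (adjusted p = 3.234e-05), where 22.5% and 29.0% of genes rose and 33.7% and 40.6% passed in either direction. Its groups did not overlap in DMSO, as for 19.0% of genes upward, and overlapped in cisplatin. With a term for the spread between replicates, in edgeR, the change in DMSO was 0.53 ± 0.16 (adjusted p = 0.0279, with 8.08% of genes rising) and that in cisplatin 0.31 ± 0.15 (adjusted p = 0.202, with 8.39% of genes rising), and the quasi-binomial model gave adjusted p-values of 0.244 and 0.323. The ratio of WT1 rose in cisplatin by 1.64 ± 0.45 (adjusted p = 0.00117), with all libraries at 72 h above those at 24 h as in 19.3% of genes, but not with edgeR (1.58 ± 0.63, adjusted p = 0.0972) or the quasi-binomial model (adjusted p = 0.262), and the call was lost without cisplatin 72 h replicate 2 (1.02, adjusted p = 0.0952). In DMSO its change was 0.47 ± 0.41 (adjusted p = 0.397), which passed without DMSO 24 h replicate 2 (1.10) and was -0.01 without DMSO 24 h replicate 3.

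Genes that work with the lineage genes were read from 6 lists, and in none of them did a gene pass for cisplatin against DMSO at 24 or 72 h, or for the difference between the time changes in DMSO and in cisplatin. The list genes named below as having risen or fallen in DMSO also passed in the same direction in cisplatin, except HOXA10 (log2 change 0.041 in cisplatin, edgeR adjusted p = 0.565). Among transcription factors and receptors of the Müllerian duct and urogenital ridge, 6 of 23 measured genes were expressed and 11 had 0 counts in all libraries. In this list 2 genes rose and 1 fell of 6 tested between 24 and 72 h in DMSO, where 32.6% of all genes tested rose and 32.5% fell, shares that this count is close to. The median log2 change was 0.105 against 0.015 over all genes tested. HOXA10, which patterns the uterus, was the highest per kb at 59.7 CPM and rose slightly in DMSO (log2 change 0.19, adjusted p = 0.00767). HOXA11, its neighbour in the same cluster, rose from 7.21 ± 0.835 to 12.8 ± 0.45 CPM (0.83, adjusted p = 2.438e-06), and CBX2, a Polycomb protein of gonad development, fell from 40.8 ± 0.962 to 23.9 ± 2.19 CPM (-0.78, adjusted p = 9.765e-09; n = 3, edgeR).

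Regulators tied to PAX8 and SOX17, and cofactors of WT1 and MECOM, had 15 of 22 measured genes expressed. Of 16 tested, 2 rose and 7 fell in DMSO and 3 rose and 6 fell in cisplatin between the harvest times, where 32.0% of all genes rose and 31.5% fell in cisplatin and the shares in DMSO were those given above. SOX7, a relative of SOX17 that also acts in endothelium, was at 416.7 CPM while SOX17 was at 0, and it fell in DMSO from 438.5 ± 17.8 to 369.1 ± 8.55 CPM (-0.25, edgeR adjusted p = 6.689e-05). BASP1, a corepressor of WT1, fell from 95.1 ± 4.58 to 62.8 ± 5.82 CPM (-0.59, adjusted p = 1.481e-06). SUV39H1, a histone H3 lysine methyltransferase that binds EVI1, fell from 83.7 ± 2.7 to 45.8 ± 0.827 CPM (-0.87, adjusted p = 8.366e-12).

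The list of surface and secreted markers of serous carcinoma also held intracellular proteins, among them keratins and CKB. Of its 35 measured genes, 9 were expressed, 8 low and 18 near 0. Of the last, 9 had 0 counts in all libraries, as WFDC2 and FOLR1 did. Of 10 tested, 4 rose and 2 fell in each time comparison, beside the shares over all genes (32.6% up and 32.5% down in DMSO, 32.0% and 31.5% in cisplatin). KRT18, a simple-epithelial keratin with many processed copies in the genome, fell in DMSO (-0.37, adjusted p = 1.63e-06) and BCAM, a laminin receptor, rose from 41.9 ± 4.66 to 50.01 ± 1.02 CPM (0.25, adjusted p = 0.00394). CKB, the brain-type creatine kinase, rose from 1.55 ± 0.348 to 8.45 ± 0.379 CPM (2.43, adjusted p = 1.527e-11), and EPCAM, an epithelial adhesion protein, rose from 0.264 ± 0.105 to 1.38 ± 0.12 CPM in DMSO (2.34, edgeR adjusted p = 5.619e-06) and from 0.224 ± 0.0942 to 1.45 ± 0.2 CPM in cisplatin (2.55, adjusted p = 1.619e-06).

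Of 10 ciliated and tubal markers 5 were expressed, but FOXJ1, the master regulator of motile cilia, was near 0. Of 6 tested, 2 rose and 1 fell in DMSO, near the 32.6% and 32.5% of all genes, and 4 rose and 1 fell in cisplatin, where 32.0% of all genes rose and 31.5% fell. TUBB4B, a tubulin of cilia and of dividing cells with close paralogues, fell from 801 ± 72.9 to 404 ± 8.43 CPM in DMSO (-0.99, edgeR adjusted p = 7.038e-13). CAPS, a calcium-binding protein, rose in DMSO from 0.647 ± 0.171 to 2.11 ± 0.529 CPM (1.71, adjusted p = 1.069e-05). CCDC78, a centriole protein, rose in both treatments, by 1.23 in DMSO and 1.34 in cisplatin on the log2 scale (adjusted p = 0.00125 and 0.000392). RFX3, a ciliary transcription factor, had a change of 0.15 in DMSO (adjusted p = 0.242) and rose by 0.34 in cisplatin (adjusted p = 0.00803).

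Around FOLR1, the other genes of folate uptake and use were largely expressed, 6 of 8, and the exceptions were the receptors FOLR2 and FOLR3. Of 6 tested, 5 fell and 1 rose between 24 and 72 h in each treatment, where 32.5% of all genes fell in DMSO and 31.5% in cisplatin. The median log2 changes of the list were -0.925 in DMSO and -0.912 in cisplatin, against 0.015 and 0.0166 over all genes tested. TYMS, thymidylate synthase, fell from 90.0 ± 3.36 to 37.0 ± 3.69 CPM in DMSO (-1.28, edgeR adjusted p = 2.59e-13). In the list of mucins and WFDC relatives of MUC16 and WFDC2, 1 of 9 measured was expressed, MUC1 at 2.60 CPM, with a change of 0.30 in DMSO (adjusted p = 0.181). WFDC3 came next per kb but was low, at 0.12 CPM.

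The genes whose exon levels followed the lineage genes most closely were named by Pearson correlation of log2(CPM + 1) over the 12 libraries, a description in which the points share groups and depth. For MECOM these were FOXN2 (r = 0.915), BCL2 (0.912) and MB21D2 (0.886), all highest on average in DMSO 24 h and lowest in DMSO 72 h. BCL2, which blocks apoptosis, averaged 13.1 CPM in the former and 9.03 CPM in the latter. For WT1 they were SLC27A4 (r = 0.927), SLC20A2 (0.905) and CCDC43 (0.892), with the same order of those groups. For LHX9 the closest were H3C2 (0.838), ATN1 (0.791) and TULP4 (0.785), but its 16 counts leave no finding there.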

How the data were processed

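Per the labels and the study's methods, the authors trimmed paired reads (FastQC 0.11.8, Trim Galore 0.6.0), aligned them with HISAT2 2.1.0 to GRCh38 and counted fragments with HTSeq separately over exons and introns of Ensembl 98 genes, and the deposited values were used as these raw counts. Overlapping antisense genes and near-identical copies could share counts, and the strand setting was not given in the sources used here. All genes were fitted together: edgeR 4.0.16 (R 4.3.3; filterByExpr, TMM, quasi-likelihood, all 12 libraries, a mean per group) for exon and intron counts, and logistic regression for the exon/intron ratio of the 6 libraries compared, for genes with a count of 1 or more in exons and in introns of every library. Adjusted p-values are Benjamini-Hochberg over all genes tested, with a threshold of 0.05, and errors of log2 changes are standard errors. Alternatives were DESeq2 1.42.0, its size factors, no filter, a replicate block, an edgeR and a quasi-binomial ratio test, and leaving out each library. The labels do not say whether replicates were separate cultures on separate days, so p-values measure the spread between these libraries. Scripts were tested on simulated data. Lengths and positions are from GENCODE 44 on GRCh38, and lengths of the counted exon segments were not given. The lineage genes and the gene lists were chosen with earlier results of these data known. All lineage genes are named. From each list, the 2 highest per kb and the 2 with the largest called change are named, and for the 3 highest lineage genes the 3 most correlated genes. A gene that this rule names is not reported here.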

Additional observations from a re-analysis of the deposited data

How the results depend on the processing

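The call of 2 expressed lineage genes was the same when scaled to exon plus intron counts and at thresholds of 0.5 and 2 CPM. For single genes, 191 of 196 values under alternatives other than leaving out a library kept their direction and side of the threshold, and the other 5, all exon/intron ratios of MECOM and WT1 between times, lost significance with edgeR or the quasi-binomial model. Counts of called genes moved as follows. Without a filter, exon counts gave 7 genes for cisplatin at 24 h, 154 at 72 h and 20 for the difference of the drug effects, and intron counts 5, 19 and 11. DESeq2 gave 55 for exon counts at 72 h and 0 for introns at 24 h (383 by unadjusted p). For the ratio, edgeR and the quasi-binomial model gave 0 and 0 at 24 h (595 and 530 unadjusted), 2 and 0 at 72 h (586 and 683 unadjusted), 1076 and 64 between times in DMSO and 1123 and 97 in cisplatin, against 1110, 1144, 3278 and 3984 by logistic regression. The cause was not tested. Same-numbered libraries did not deviate together (correlations -0.108 to 0.102 for exon counts), so numbers were not taken as pairs. With the replicate block, intron counts gave 0 genes for cisplatin at 24 h (454 unadjusted) and 0 for the difference (523 unadjusted). Exon counts gave 6751 between times in DMSO and 6538 in cisplatin, and no call of MECOM or WT1 changed. Each gene of the 6 lists of related genes named as having risen or fallen was read only in the time comparison with its larger change. None of those calls changed.

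Leaving out each library in turn gave 0 to 1 exon calls for cisplatin at 24 h, 0 to 72 at 72 h (72 without DMSO 72 h replicate 3, 0 without cisplatin 72 h replicate 3) and 0 to 1 for the difference. For intron counts it gave 0 to 3, 3 to 12 and 0 to 7, and for the ratio 245 to 1555 at 24 h (245 without cisplatin 24 h replicate 2) and 729 to 1138 at 72 h. Values that turned sign had ranges of -0.37 to 0.058 for WT1 exon counts at 24 h, -0.029 to 0.25 for MECOM intron counts at 72 h, -0.34 to 0.77 for the WT1 ratio and -0.050 to 0.17 for the MECOM ratio at 24 h, -0.29 to 0.025 for the MECOM ratio at 72 h and -0.013 to 1.10 for the WT1 ratio between times in DMSO. None of these had passed. WT1 introns rested on 4 to 17 counts per library.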

Other observations

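Because the endothelial markers stood so high, 18 further endothelial genes were read, a list chosen after the values were seen and not tested as a list. Of these, 13 were expressed. TIE1, an endothelial receptor tyrosine kinase, averaged 2119 CPM, MMRN1 (multimerin) 1907 CPM, EGFL7 951.8 CPM, ECSCR 817.8 CPM and ESAM 419.7 CPM, and TEK, the angiopoietin receptor, 147.0 CPM. CD34, PLVAP, FLT4, SOX18 and EMCN were low or near 0. The summed level of the list was 6673 to 6873 CPM at 24 h and 7309 to 7583 CPM at 72 h. Of 14 tested, 3 rose and 7 fell between times in DMSO, with a median log2 change of -0.234, where 32.6% of all genes rose and 32.5% fell. TIE1 was among those that rose (0.43, edgeR adjusted p = 2.191e-07), and PECAM1, an endothelial marker outside this list, fell from 2451 ± 56.2 to 1387 ± 44.7 CPM (-0.82, adjusted p = 1.338e-13; n = 3).

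Of 6 markers of clear cell or endometrioid carcinoma, 1 was expressed, ANXA4 at 73.4 CPM, 1 was low and 4 were near 0.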
